A study of Mus musculus with 9 samples.

Results

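The genes described here code for the proteins of the cytosolic ribosome, the particle that translates nuclear-encoded mRNA. They were chosen by symbol alone: Rpl or Rps followed by a number, with an optional letter, X or l suffix, together with Rplp0, Rplp1, Rplp2 and Rpsa, leaving out pseudogene symbols with "-ps" and the S6 kinases. Where a gene had several probe sets, the brightest by its mean on the 9 arrays stands for it, which gave 64 members among 22180 genes, 24 with a small-subunit and 40 with a large-subunit symbol. Of 79 core ribosomal protein genes listed for this purpose, 57 are members. Another 12, such as Rps2, Rpl10 and Rpl13a, lie only on probe sets annotated with several symbols, 8 were not analysed here, and Fau and Rps3a1 have symbols outside the rule. The other 7 members are paralogs or copies of core genes: Rps27l, Rpl3l, Rpl10l, Rpl39l, Rps4l, Rpl6l and Rpl32l.

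The cells were mouse podocytes, the epithelial cells that wrap the capillaries of the kidney filter, grown in culture and differentiated for 11 days at 37 °C. DMSO, the vehicle, was given to 3 samples, 2.5 µM thapsigargin for 16 hours to 3, and 2.5 µM thapsigargin with 10 µM forskolin for 16 hours to 3. Thapsigargin blocks the pump that fills the endoplasmic reticulum with calcium and so causes stress of that compartment, and forskolin activates adenylyl cyclase and raises cyclic AMP. No group had forskolin alone, so a change with forskolin is a change on top of thapsigargin. The titles number biological replicates but do not say whether these were separate cultures, so the p-values cover only the spread among these arrays. No strain, cell line or clone is named in the labels.

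A ribosome joins a small subunit, which holds the mRNA and reads its codons, to a large subunit, which makes the peptide bond. Cells make the ribosomal proteins in matched amounts, and the mRNAs of nearly all of them start with a stretch of pyrimidines, the terminal oligopyrimidine (TOP) tract, through which mTOR signalling and the binding protein Larp1 set their translation and stability. Stress of the endoplasmic reticulum is best known for lowering translation through phosphorylation of the initiation factor eIF2, and podocytes have a well developed secretory system for the proteins of the filter.

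The annotated transcription starts were searched for such a tract. RefSeq promoter sequences (GRCm38.p6, from 250 bases before to 50 bases after each start) were matched by symbol for 49 of the 64 members, and 8 of these have more than 1 start. A run of at least 6 C or T letters with a base within 5 bases of the start was present in 24 of the 49 members (49%) and in 6227 of 27025 genes with a promoter sequence (23%). Below are 30 bases of 10 members, from 10 bases before the start to 20 bases after it, 5′ to 3′ on the gene's strand, with the run in capitals. They are shown because a run near the start stands in members that rose with thapsigargin and in members that did not pass the test.
They were chosen among members with 1 start and such a run, after members on 1 chromosome had been left out. The first 5 are those with the largest rise, and the next 5 are the uncalled ones with the smallest change. In Rpl6 the run ends before the annotated start and in Rps23 it begins after it, and in the others it covers the start.
Rps27, chr3:90213629-90213658, minus strand: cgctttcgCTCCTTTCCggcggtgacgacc
Rpl6, chr5:121204491-121204520, plus strand: aCCTCCCgtcattgcttatagaccggaagc
Rplp2, chr7:141447641-141447670, plus strand: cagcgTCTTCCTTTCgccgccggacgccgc
Rpl35, chr2:39005112-39005141, minus strand: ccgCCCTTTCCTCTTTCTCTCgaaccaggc
Rpl14, chr9:120571507-120571536, plus strand: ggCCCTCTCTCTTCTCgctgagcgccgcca
Rpl27a, chr7:109519185-109519214, plus strand: cgtgagCTCCTCCCTTTTCCCTTTCTgcca
Rpl32l, chr10:20208429-20208458, plus strand: aaatgaccagCTTCTTCCTTggtgctgcct
Rps23, chr13:90923112-90923141, plus strand: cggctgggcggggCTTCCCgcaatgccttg
Rpl28, chr7:4792955-4792984, plus strand: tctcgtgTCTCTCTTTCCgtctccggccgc
Rpl38, chr11:114668570-114668599, plus strand: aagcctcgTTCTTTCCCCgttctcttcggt

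The deposited values are log2 values made by the authors with RMA, and a difference of 1 is a 2-fold change. Array medians lay between 5.80 and 5.88, and correlations over probe sets were 0.989 to 0.993 within groups and 0.966 to 0.992 between groups. Of 10 podocyte markers 8 were analysed here. With thapsigargin 1 of them, Cd2ap, rose and 5 fell (Wt1, Podxl, Synpo, Actn4, Nes). Nphs1, the slit diaphragm protein nephrin, had a mean of 6.55 with DMSO and 6.38 with thapsigargin. The summed podocyte marker level (log2) went from 12.96 to 12.98 with DMSO, 12.73 to 12.77 with thapsigargin and 12.33 to 12.40 with both agents. The brightest of the 8 were Actn4 and Cd2ap, at means of 11.82 and 11.33 with DMSO. Synpo changed by -2.52 with thapsigargin. Nphs1 and Tcf21, the latter at a mean of 5.88 with DMSO, passed in no comparison. The tubule list, measured for 6 of 6 genes, had 4 that fell with thapsigargin, and its sum went from 12.65 to 12.69 with DMSO, 10.02 to 10.1 with thapsigargin and 10.24 to 10.25 with both. Mesangial or pericyte genes summed to 10.86 to 10.9, 9.86 to 9.92 and 11.18 to 11.29 in the same order, endothelial genes to 10.51 to 10.57, 9.56 to 9.59 and 9.36 to 9.54, and leukocyte genes to 9.09 to 9.15, 8.66 to 8.88 and 9.43 to 9.59. Each sum adds unlogged values, so the brightest genes weigh most. Among endothelial genes Ehd3 had means of 10.36, 9.16 and 9.05, while Pecam1, Cdh5 and Kdr passed in no comparison. Among mesangial or pericyte genes Mcam had means of 8.77, 8.04 and 10.62, and Pdgfrb 10.36, 9.13 and 9.51. Cspg4 and Rgs5 passed in no comparison. The leukocyte gene Ptprc lay below the lower quartile on all 9 arrays. The part of these shifts in the results that follow was not tested, and in bulk RNA fewer cells of a type and less RNA per cell cannot be told apart.

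Thapsigargin against DMSO asks what calcium pump block did to these genes. Thapsigargin raised 38 of the 64 ribosomal protein genes and lowered 0 (limma, Benjamini-Hochberg adjusted p below 0.05), and the other 26 did not pass the test. Over all genes 18.2% were called higher and 16.9% lower. At an unadjusted p below 0.05, 44 members were higher and 1, Rpl39l, was lower, and over all genes 4563 were higher and 4710 lower. The changes were small: the median over the 64 was 0.28 on the log2 scale, with quartiles of 0.08 and 0.48 and a range from -0.37 to 1.16, beside a median of -0.04 over all genes. Rpl30 alone passed a 2-fold rise.

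The values per array show the same shift. The median value over the members was 9.02, 9.10 and 9.20 on the DMSO arrays, 9.50, 9.48 and 9.65 on the thapsigargin arrays, and 9.44, 9.49 and 9.50 with both agents. Every array with thapsigargin, with or without forskolin, thus lay above every DMSO array. For 45 members all 3 thapsigargin arrays lay above all 3 DMSO arrays, as they did for 21.6% of all genes. For 2 members, Rpl21 and Rps27l, they all lay below, as they did for 22.3% of all genes. The spread within groups was small, with a median SD of 0.0849 for the members and 0.105 for all genes.

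**Figure D1:**
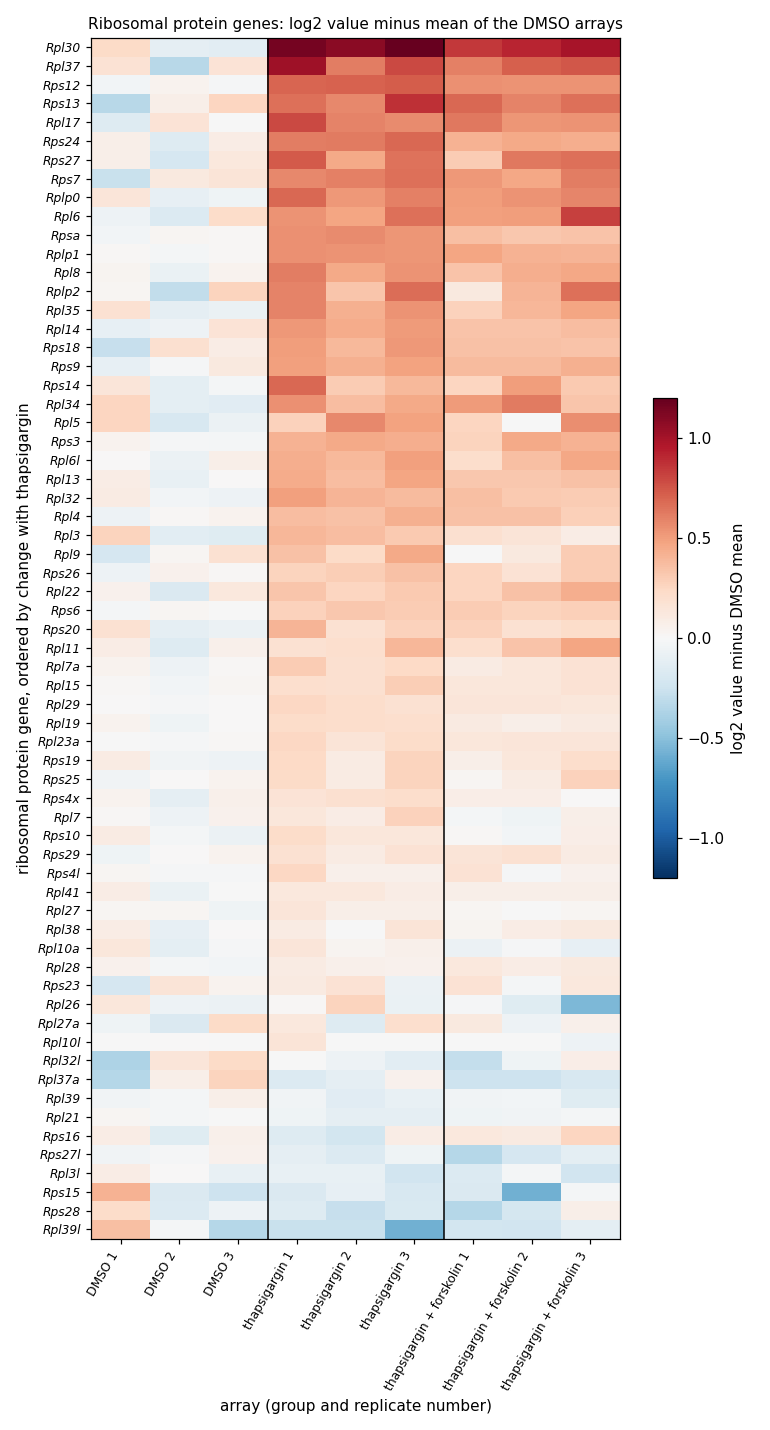
Heat map of the 64 ribosomal protein genes (rows, ordered by their change with thapsigargin) on the 9 arrays (columns, by group and replicate number). Colour is the log2 value minus the gene's mean on the DMSO arrays, red for higher and blue for lower. The upper rows are red on all 6 arrays with thapsigargin, with Rpl30 the darkest, and the lowest rows, from Rpl32l to Rpl39l, are mostly pale or blue.

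Rpl30, a large-subunit protein of the interface between the subunits, changed most. It measured 6.35, 6.01 and 5.99 with DMSO, 7.27, 7.20 and 7.36 with thapsigargin, and 6.97, 7.03 and 7.11 with both agents. The 3 groups did not overlap: DMSO was lowest, thapsigargin highest, and the arrays with both agents lay between them. The rise with thapsigargin was 1.16 ± 0.0979 (SE, n = 3 arrays per group), or 2.24-fold, with an adjusted p of 1e-05 (limma, Benjamini-Hochberg). Rpl37, a zinc-binding protein of the large subunit, measured 7.10, 6.59 and 7.08, then 7.94, 7.54 and 7.72, then 7.53, 7.64 and 7.67 in the same order. The second DMSO array was low, and all arrays with thapsigargin lay above all DMSO arrays. The rise was 0.81 ± 0.145 (adjusted p = 0.00158).

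Small-subunit genes gave 15 rises among 24 (62.5%, beside 18.2% of all genes), with a median of 0.30. Rps12, which sits on the head of the small subunit, measured 11.35, 11.43 and 11.36 with DMSO, 12.08, 12.09 and 12.11 with thapsigargin, and 11.93, 11.92 and 11.92 with both. Its arrays within a group lay close together, and the 3 groups were apart. It rose by 0.71 ± 0.0468 with thapsigargin, and its adjusted p of 1.91e-06 (limma, Benjamini-Hochberg) was the smallest among the members. Rps13, a small-subunit protein that binds rRNA early in assembly, measured 8.51, 8.92 and 9.10, then 9.51, 9.42 and 9.72, then 9.54, 9.44 and 9.51. The first DMSO array was lowest, and the spread among the DMSO arrays was wider than in the other groups. Rps13 rose by 0.70 ± 0.138 (adjusted p = 0.00275).

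Rps24, mutated in some patients with Diamond-Blackfan anaemia, measured 9.98, 9.75 and 10.00 with DMSO, 10.53, 10.54 and 10.60 with thapsigargin, and 10.33, 10.36 and 10.34 with both. All 3 groups were separate. The rise was 0.64 ± 0.0699 (adjusted p = 5.55e-05). Rps7, needed for early processing of the small-subunit rRNA, measured 6.52, 6.91 and 6.94, then 7.37, 7.40 and 7.46, then 7.31, 7.26 and 7.41. The first DMSO array was lowest, and no DMSO array reached the others. It rose by 0.61 ± 0.106 (adjusted p = 0.00124).

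Rpsa, a small-subunit protein also known as the laminin receptor precursor, measured 11.26, 11.31 and 11.31 with DMSO, 11.84, 11.86 and 11.82 with thapsigargin, and 11.65, 11.62 and 11.64 with both. Arrays of a group were nearly alike, and the groups did not overlap. The rise with thapsigargin was 0.55 ± 0.0465 (adjusted p = 1.06e-05). Rps6, the substrate of the S6 kinases, measured 12.40, 12.46 and 12.43, then 12.70, 12.75 and 12.73, then 12.73, 12.69 and 12.71. Both groups with thapsigargin lay above DMSO and overlapped each other. Rps6 rose by 0.30 ± 0.0465 (adjusted p = 0.000596). Rps3, which also acts in DNA repair, rose by 0.44 (adjusted p = 0.000287), and Rps14, near the mRNA exit, rose by 0.46 (adjusted p = 0.00961).

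The stalk of the large subunit recruits the elongation factors and is built from Rplp0, the base, and copies of Rplp1 and Rplp2. All 3 measured stalk genes rose, beside 59.4% of all members and 18.2% of all genes. Rplp0 measured 10.61, 10.36 and 10.41 with DMSO, 11.15, 10.98 and 11.07 with thapsigargin, and 10.96, 10.99 and 11.04 with both, a rise of 0.61 ± 0.0751 with thapsigargin (adjusted p = 0.000136). Rplp1 measured 11.72, 11.68 and 11.72, then 12.25, 12.25 and 12.24, then 12.18, 12.12 and 12.12, a rise of 0.54 ± 0.0466 (adjusted p = 1.18e-05). In both genes DMSO stood apart from the other arrays. Rplp2 measured 5.71, 5.39 and 5.96, then 6.28, 6.02 and 6.36, then 5.81, 6.10 and 6.35. Its groups were more widely spread, but thapsigargin alone did not overlap DMSO. Rplp2 rose by 0.53 ± 0.171 (adjusted p = 0.0362). This call was lost without DMSO array 1 or 2, thapsigargin array 1 or 3, or array 2 with both agents, at adjusted p-values from 0.0526 to 0.126.

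Large-subunit genes gave 23 rises among 40 (57.5%, beside 18.2% of all genes), with a median of 0.25. Rpl17, which lines the exit of the peptide tunnel, measured 6.31, 6.63 and 6.46 with DMSO, 7.26, 7.06 and 7.04 with thapsigargin, and between 6.99 and 7.10 with both. The DMSO arrays lay below all others. Rpl17 rose by 0.65 ± 0.0915 (adjusted p = 0.000316). Rpl6 rose by 0.56 (adjusted p = 0.00442), Rpl8, close to the catalytic centre, by 0.54 (adjusted p = 0.000117), and Rpl4, which reaches into the peptide tunnel, by 0.38 (adjusted p = 0.000273). Among the smallest rises that passed was that of Rpl29, at 0.21 (adjusted p = 0.00482), with 12.59, 12.56 and 12.58 on the DMSO arrays and 12.83, 12.79 and 12.75 with thapsigargin.

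Rpl5 and Rpl11 carry the 5S rRNA into the large subunit and, when ribosome assembly is disturbed, bind Mdm2 and stabilise p53. Neither passed the test with thapsigargin. Rpl5 measured 7.57, 7.12 and 7.24 with DMSO, 7.58, 7.89 and 7.79 with thapsigargin, and 7.56, 7.30 and 7.87 with both. Its first DMSO array lay just under the lowest thapsigargin array, and the arrays with both agents overlapped DMSO. The difference with thapsigargin was 0.45 ± 0.159 (adjusted p = 0.0566). Rpl11 measured 6.35, 6.10 and 6.31, then 6.44, 6.46 and 6.66, then 6.46, 6.60 and 6.73. All arrays with thapsigargin lay above DMSO, and the differences were 0.26 ± 0.0964 for thapsigargin (adjusted p = 0.0638) and 0.34 for both agents (adjusted p = 0.0214), so that it passed only with both. The difference between the agents in Rpl11 was 0.08 (adjusted p = 0.755).

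Genes mutated in Diamond-Blackfan anaemia, a failure of red cell formation, gave 7 rises among the 14 measured of 19 listed, with a median of 0.25. This was 50% of the 14, beside 59.4% of all members and 18.2% of all genes. The 7 were Rps24, Rps27, Rps7, Rpl35, Rps26, Rpl15 and Rps19. Rps19, the most often mutated of them, was the least separated: it measured 10.24, 10.10 and 10.08 with DMSO, 10.38, 10.24 and 10.40 with thapsigargin, and 10.22, 10.27 and 10.35 with both. The second thapsigargin array lay level with the first DMSO array, so the groups met, and the rise of 0.20 ± 0.0698 had an adjusted p of 0.0494 (limma, Benjamini-Hochberg). Leaving out DMSO array 2 or 3, thapsigargin array 1 or 3 or any array with both agents lost this call, at adjusted p-values from 0.0563 to 0.156. Rps26 rose by 0.30 (adjusted p = 0.0022). Rps10, Rps29, Rpl26, Rpl27 and Rps28 of this list did not pass.

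Of the 26 members that did not pass with thapsigargin, 16 had a difference above 0 and 10 below. Rpl21, a large-subunit protein, measured 12.75, 12.71 and 12.72 with DMSO, 12.68, 12.62 and 12.62 with thapsigargin, and 12.68, 12.69 and 12.71 with both. All thapsigargin arrays lay below all DMSO arrays, by a difference of -0.09 ± 0.0469 (adjusted p = 0.186), though a dimmer probe set of the gene rose, as described with the probe sets. Rps28, at the mRNA exit of the small subunit, measured 11.27, 10.88 and 10.99, then 10.89, 10.77 and 10.86, with the first DMSO array high and the second within the thapsigargin range. Its difference was -0.21 ± 0.123 (adjusted p = 0.245), though a dimmer probe set of Rps28 had the opposite sign, as described with the probe sets. Rpl28 differed by 0.07, with a 95% confidence interval from -0.04 to 0.18, and Rpl38, known for its part in the patterning of the embryo, by 0.08, with an interval from -0.07 to 0.24. These intervals leave out a rise as large as the median of the members but, like the adjusted p-values, do not show that the genes stayed level.

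**Figure D2:**
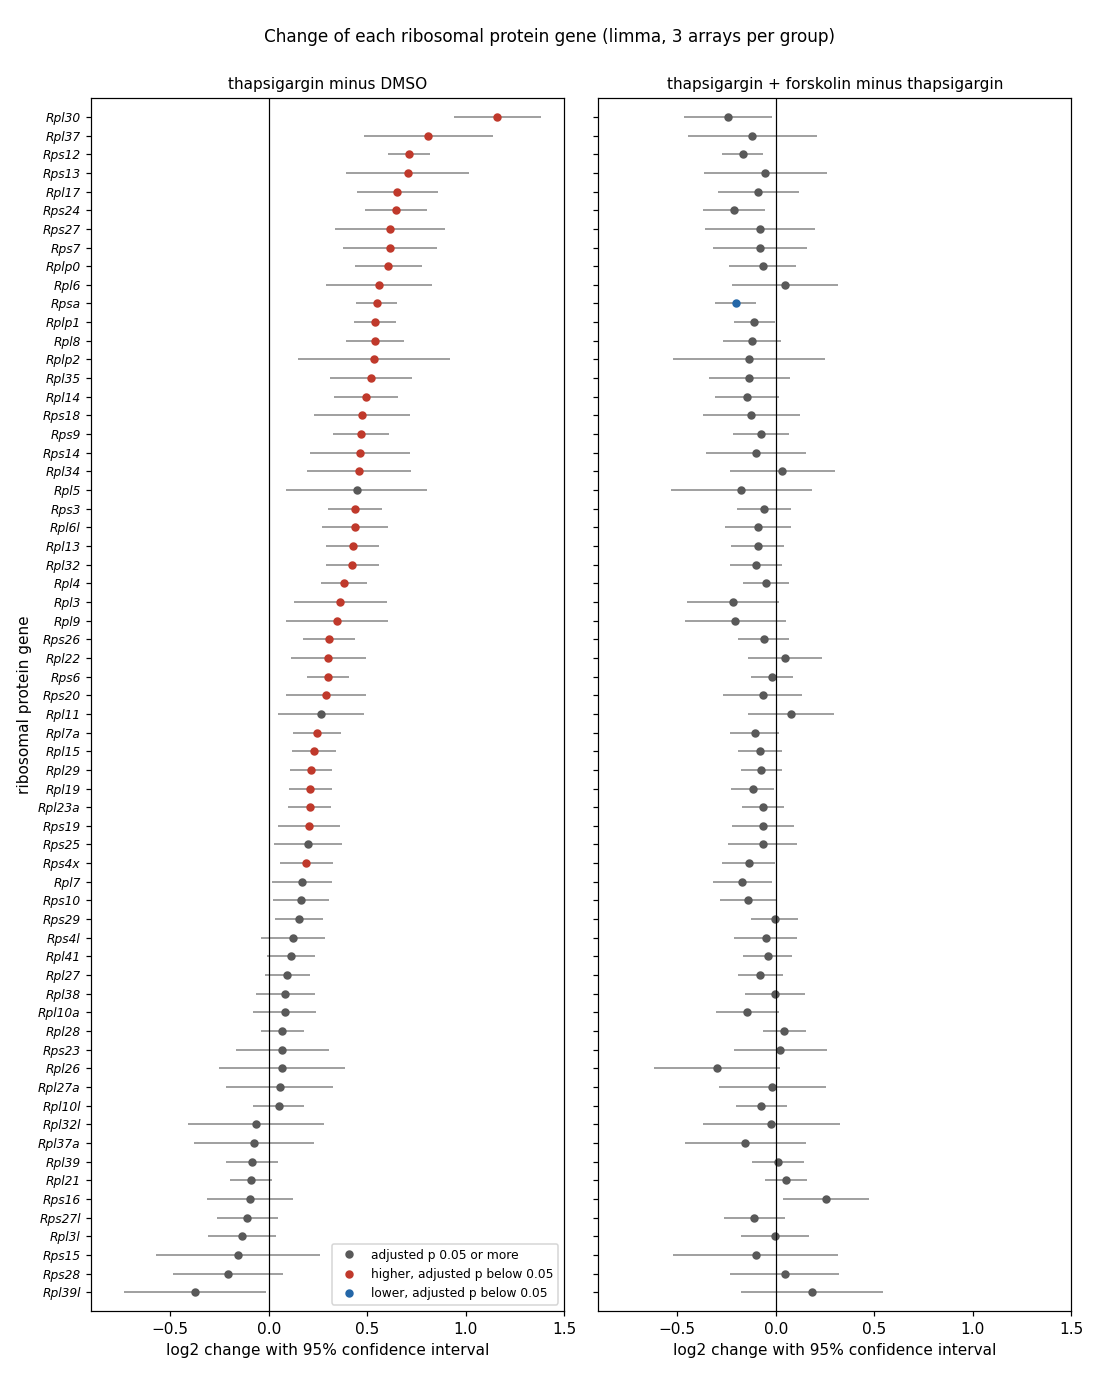
Log2 change of each of the 64 ribosomal protein genes (vertical axis, ordered by the change with thapsigargin), with horizontal lines for the 95% confidence interval from limma on 3 arrays per group. The left panel is thapsigargin minus DMSO and the right panel thapsigargin with forskolin minus thapsigargin; red points were called higher, the blue point, Rpsa, lower, and grey points did not pass. The left panel runs from 1.16 for Rpl30 to -0.37 for Rpl39l, and in the right panel most points lie just left of 0.

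Core genes and their copies were counted apart. Of the 57 core members 37 rose (64.9%), with a median of 0.30, and of the 7 paralogs or copies 1, Rpl6l, rose (14.3%). Over all genes 18.2% were called higher, so the share among the copies lay near that of all genes. The 7 include Rpl10l and Rpl32l, which lay below the lower quartile of all probe sets on all 9 arrays, so a change in them was not measurable here. Rpl3l, Rpl39l and Rps4l were dim too, at means of 5.78, 5.75 and 5.55. Below a mean of 8, 8.16% of all genes were called higher. Rps27l, a p53-inducible paralog of Rps27, measured 8.67, 8.69 and 8.76 with DMSO, 8.60, 8.54 and 8.66 with thapsigargin, and 8.37, 8.51 and 8.59 with both. Its arrays with thapsigargin lay just below those with DMSO, and those with both agents reached lower still. Rps27 measured 7.90, 7.62 and 7.95, then 8.56, 8.28 and 8.48, then 8.13, 8.45 and 8.49, with all arrays that had thapsigargin above DMSO. Rps27 rose by 0.61 ± 0.124 (adjusted p = 0.00318) and Rps27l differed by -0.11 ± 0.0682 (adjusted p = 0.273).

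The difference between paralogs was tested directly, as the value of the core gene minus that of its paralog on each array. In 7 pairs and 3 comparisons this gave 21 exact permutation tests, two-sided, for which 3 arrays against 3 allow no p below 0.1. With thapsigargin the rise of Rps27 exceeded that of Rps27l by 0.72, that of Rpl3 exceeded Rpl3l by 0.50, and that of Rpl22 exceeded Rpl22l1 by 0.60. In these 3 pairs the difference did not overlap between the groups, at the smallest exact permutation p of 0.1, and 0.3 after Benjamini-Hochberg adjustment. Rpl22l1 has a symbol outside the rule, and its own difference was -0.30 (adjusted p = 0.153). Rpl3l and Rpl22l1 were dim, at means of 5.78 and 4.88, below the lowest array median of 5.80. A change in these paralogs may therefore not have been measurable. In the other 4 pairs the groups overlapped: the differences were 0.12 for Rpl6 over Rpl6l, 0.07 for Rps4x over Rps4l, 0.29 for Rpl39 over Rpl39l and -0.13 for Rpl7 over Rpl7l1. Rpl3l is best known from muscle and Rpl10l and Rpl39l from testis. Rpl10l was at 4.18, 4.19 and 4.18 with DMSO and at 4.33, 4.18 and 4.18 with thapsigargin.

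**Figure D3:**
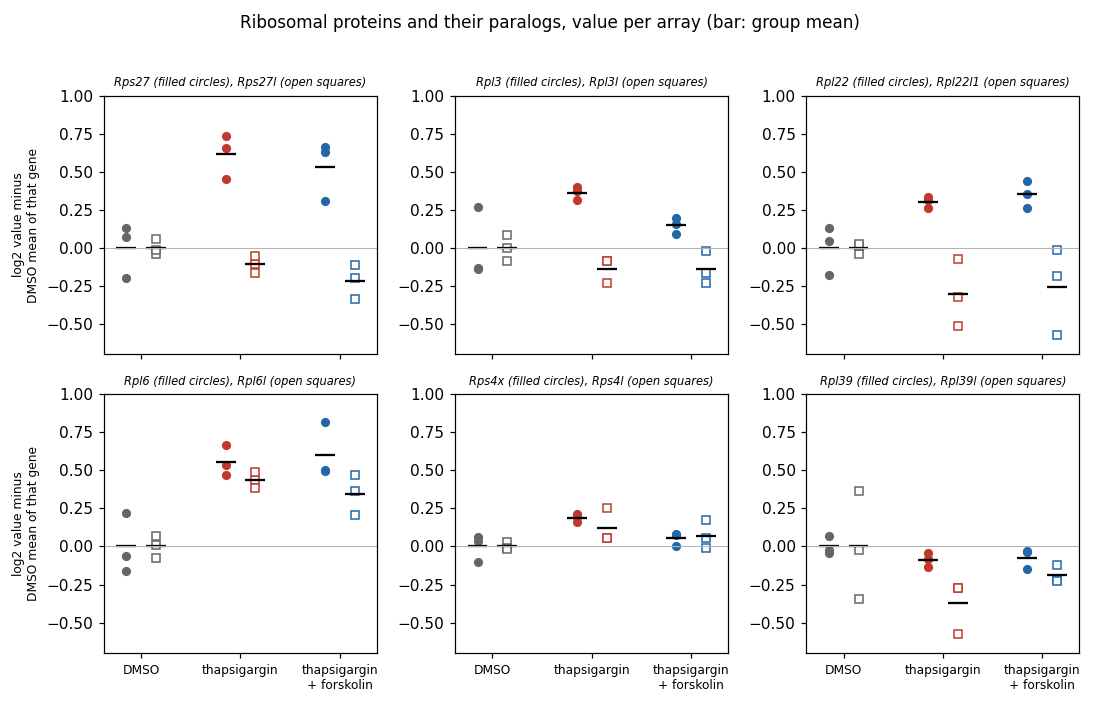
Log2 value on each array minus the mean of the DMSO arrays of the same gene, for 6 core genes (filled circles) and their paralogs (open squares) in the 3 groups of 3 arrays, with bars for the group mean. In the upper panels the circles rise with thapsigargin and the squares lie at or below the DMSO mean; Rpl6 and Rpl6l lie above it together, and Rpl39 and Rpl39l lie at or below it.

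The share called was lower among dim probe sets, for members as for all genes, without a test of the difference between ranges. Below a mean log2 value of 8, 9 of 25 members rose (36%), with a median of 0.15, beside 8.16% of all genes of that range. From 8 to 10, 6 of 8 rose (75%), beside 41.3%, and from 10 up, 23 of 31 rose (74.2%), beside 42%, with medians of 0.45 and 0.30. Across the 64 members the rank correlation of level with change was 0.195, over probe sets of the same 9 arrays. Values of different probe sets also differ with their probes, so they do not order the genes by their mRNA.

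**Figure D4:**
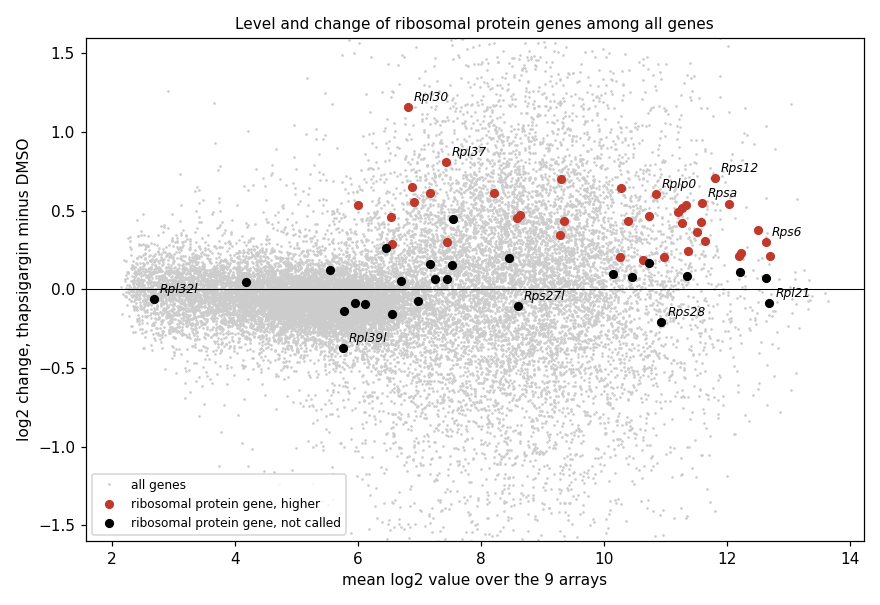
Change with thapsigargin (vertical axis, log2, thapsigargin minus DMSO) against the mean log2 value over the 9 arrays (horizontal axis), with all genes in grey, ribosomal protein genes called higher in red and those not called in black; 383 genes lie outside the vertical range. The red points lie between 0.19 and 1.16, and most bright members stand above 0, with Rpl21 and Rps28 below.

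Other probe sets of the same members were set beside the brightest. Of the 64 members 24 had 2 to 8 probe sets, 104 for all members together. Among 40 further probe sets 7, of Rps12, Rps19 and Rpl23a, had values identical to another and were left out. Of the 33 that remain, for 23 members, 15 were called higher with thapsigargin and 0 lower in a fit of all 41345 probe sets, where 13.1% of all were higher. Their median change was 0.30, at a median level of 7.22, and the brightest probe sets of these 23 members had a median change of 0.35 at a median level of 11.4. Rpl21 was the member where they disagreed most plainly: 2 bright probe sets, at mean levels of 12.69 and 12.33, both differed by -0.09, and a dimmer one, at 8.33, rose by 0.74 (limma, Benjamini-Hochberg adjusted p = 0.0106). Rpl3 rose by 0.36 on its brightest probe set, at 11.51, and by 1.12 on the next, at 9.66 (adjusted p = 0.000618), and differed by -0.05 on the third, at 5.14. Rps28 differed by -0.21 on its brightest probe set, at 10.93, and by 0.52 on the other, at 6.24 (adjusted p = 0.069). Rpl27 differed by 0.09 on its brightest, at 10.15 (adjusted p = 0.287), and rose by 0.47 on the other, at 6.89 (adjusted p = 0.0325). Copies with near-identical sequence are many in this family, and which transcripts a probe set reads was not tested here. Of 15 pseudogene symbols 2 were called higher (13.3%, beside 18.2% of all genes), with a median of 0.12. Rpl34-ps2 was among these 2, at 0.46, beside 0.46 for Rpl34 itself.

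Thapsigargin with forskolin against thapsigargin asks what forskolin did on top of thapsigargin, without a measure of cyclic AMP. It uses the thapsigargin arrays of the comparison above. Of the 64 members 0 were called higher and 1, Rpsa, lower, beside 3.70% higher and 4.17% lower over all genes. At an unadjusted p below 0.05, 1 member, Rps16, was higher and 8 were lower, and over all genes 1976 were higher and 2232 lower. The median was -0.08, beside -0.01 over all genes, and 53 of the 64 differences (82.8%) lay below 0, beside 52.1% of all genes. For 23 members all arrays with both agents lay below all arrays with thapsigargin, as for 14.0% of all genes, and for 2, Rps16 and Rpl39l, all lay above, as for 12.1%. Of the 31 members with a mean from 10 up, 19 (61.3%) were among the 23, beside 34.5% of all genes of that range.

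Rpsa, whose values are given above, fell by 0.20 ± 0.0465 with forskolin (adjusted p = 0.0284, limma with Benjamini-Hochberg adjustment), and its 3 groups did not overlap. The call was lost when any of the 6 arrays compared was left out, with adjusted p-values from 0.0677 to 0.104. Without DMSO array 1, 4 members were called lower (Rpl3, Rpl30, Rps12 and Rpsa), and without DMSO array 2, 2 were (Rps24 and Rpsa). Rpl30 differed by -0.24 (adjusted p = 0.212), Rps24 by -0.21 (adjusted p = 0.124) and Rps12 by -0.17 (adjusted p = 0.0648), and in each all arrays with forskolin lay below all with thapsigargin alone. Rpl3, at 11.75, 11.72 and 11.66 with thapsigargin and 11.54, 11.50 and 11.44 with both, differed by -0.22 (adjusted p = 0.309). In these genes the arrays with both agents lay apart from those with thapsigargin, but the differences were small. Rps16, a small-subunit protein that touches the transfer RNA, measured 6.18, 5.93 and 6.14 with DMSO, 5.93, 5.86 and 6.17 with thapsigargin, and 6.21, 6.19 and 6.34 with both, a difference of 0.26 from thapsigargin (adjusted p = 0.178). Rplp0, Rps6 and Rps27 differed by -0.07, -0.02 and -0.08, with overlapping groups.

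Thapsigargin with forskolin against DMSO shares its DMSO arrays with the first comparison. Of the 64 members 31 were higher, beside 17.9% of all genes, and 1, Rps27l, was lower, beside 16.7%. The median was 0.16, beside -0.04 over all genes. For 36 members all arrays with both agents lay above all DMSO arrays, as for 21.4% of all genes. Rpl30 was higher by 0.92, Rpl37 by 0.69, Rps13 by 0.65 and Rpl6 by 0.60, and Rpsa by 0.34 (adjusted p = 0.000274). Rps27l was lower by a difference of -0.22 (adjusted p = 0.0342). It missed the threshold without DMSO array 2 or 3, thapsigargin array 1, or array 1 or 2 with both agents, at adjusted p-values from 0.0534 to 0.101, and without DMSO array 1 Rpl37a was called lower too. Members that passed with thapsigargin but missed the threshold with both agents were Rps20, Rpl3, Rps19, Rplp2, Rpl19, Rpl7a, Rpl9 and Rps4x, and Rpl11 was the reverse. The difference between the agents did not pass for any of these 9. Rpl3 for example stood 0.36 above DMSO with thapsigargin and 0.15 with both, and Rps4x, the X-linked small-subunit protein, 0.19 and 0.05. With thapsigargin both calls were lost when some arrays were left out, at adjusted p-values from 0.0585 to 0.0824 for Rpl3 (DMSO 2 or 3, thapsigargin 1 or 2) and from 0.0625 to 0.11 for Rps4x (DMSO 2, any thapsigargin array).

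Genes that work with the ribosome were listed to place the members. Among 4 ribosomal proteins or relatives outside the rule, Fau, Rps3a1 and Rpl7l1 rose with thapsigargin by 0.33, 0.30 and 0.30, and Rpl22l1 did not pass. These rises were 75% of the 4, beside 18.2% of all genes. Elongation factors and other genes with TOP mRNAs gave 9 rises and 2 falls among 15 measured of 17 listed, with a median of 0.32. The rises were 60% of the list, beside 18.2% of all genes, and the falls 13.3%, beside 16.9%. Npm1, a nucleolar chaperone, rose by 0.86 ± 0.0526 (adjusted p = 1.14e-06), Eef1b2 by 0.53, Tpt1 by 0.45 and Eef1g by 0.43, while the initiation factor subunit Eif3h fell by 0.20 and Btf3, a chaperone of nascent chains, fell by 0.19. With forskolin on top, 2 of the 15 fell (13.3%, beside 4.17% of all genes), and the median was -0.14. Npm1 fell by 0.29 and Eif3e by 0.29 (limma, Benjamini-Hochberg adjusted p = 0.0461 for Eif3e). Npm1 is also counted on the ribosome biogenesis list, and its values were equal on all arrays with both agents.

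Ribosome biogenesis genes, whose products process rRNA and assemble the subunits in the nucleolus, had a larger median change. With thapsigargin 44 of 47 measured, of 50 listed, rose and 1, Rrp1, fell, with a median of 1.16, and 33 of the 47 rose at least 2-fold. The rises were 93.6% of the 47, beside 18.2% of all genes, and the fall 2.13%, beside 16.9%. Over all genes 684 of 22180 rose at least 2-fold. Mybbp1a, a nucleolar Myb-binding protein, measured 9.44, 9.60 and 9.59 with DMSO, 11.48, 11.48 and 11.46 with thapsigargin, and 11.14 on each array with both. Heatr1, a factor of the small-subunit processome, measured 7.60, 7.69 and 7.81, then 9.69, 9.77 and 9.92, then 9.24, 9.21 and 9.24. In both genes thapsigargin was highest, the arrays with both agents lay below it, and no groups overlapped. Mybbp1a rose by 1.93 ± 0.0554 and fell by 0.34 with forskolin (adjusted p = 0.00548), and Heatr1 rose by 2.09 ± 0.0754 and fell by 0.56 (adjusted p = 0.00192). Npm1, Dkc1, Nop56 and Wdr43 were among the other genes with the same value on every array with both agents, at an SD of 0. Why these values were equal was not tested. Equal values do not measure the spread among samples, so the SE and adjusted p-values of such genes may be too small.

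With forskolin on top of thapsigargin 37 of these 47 genes fell and 0 rose, with a median of -0.33, where 1 of the 64 ribosomal protein genes fell. The falls were 78.7% of the 47, beside 4.17% of all genes, where 3.70% were higher. The 37 include Npm1, Dkc1 and Nop56, whose values were equal on the arrays with both agents. Dkc1, the pseudouridine synthase mutated in dyskeratosis congenita, fell by 0.58 (adjusted p = 0.00967), Rrp12, which helps to export the subunits, fell by 0.47 (adjusted p = 0.0023) and Gnl3, nucleostemin, by 0.33 (adjusted p = 0.00591). Against DMSO 44 of the 47 (93.6%) were still higher with both agents, beside 17.9% of all genes, with a median of 0.87. Sbds and Nop10 did not pass with thapsigargin. The RNA polymerase I list, for the enzyme that makes the rRNA precursor and its factors, gave 7 rises and 0 falls with thapsigargin among 12 measured of 15, with a median of 0.44. The rises were 58.3% of the 12, beside 18.2% of all genes, where 16.9% fell. The largest rises of this list were those of Taf1a at 1.44, Polr1b at 1.29 and Polr1a at 1.06. With forskolin Polr1b fell by 0.39 and Polr1a by 0.34, among 3 that fell (25%, beside 4.17% of all genes).

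**Figure D5:**
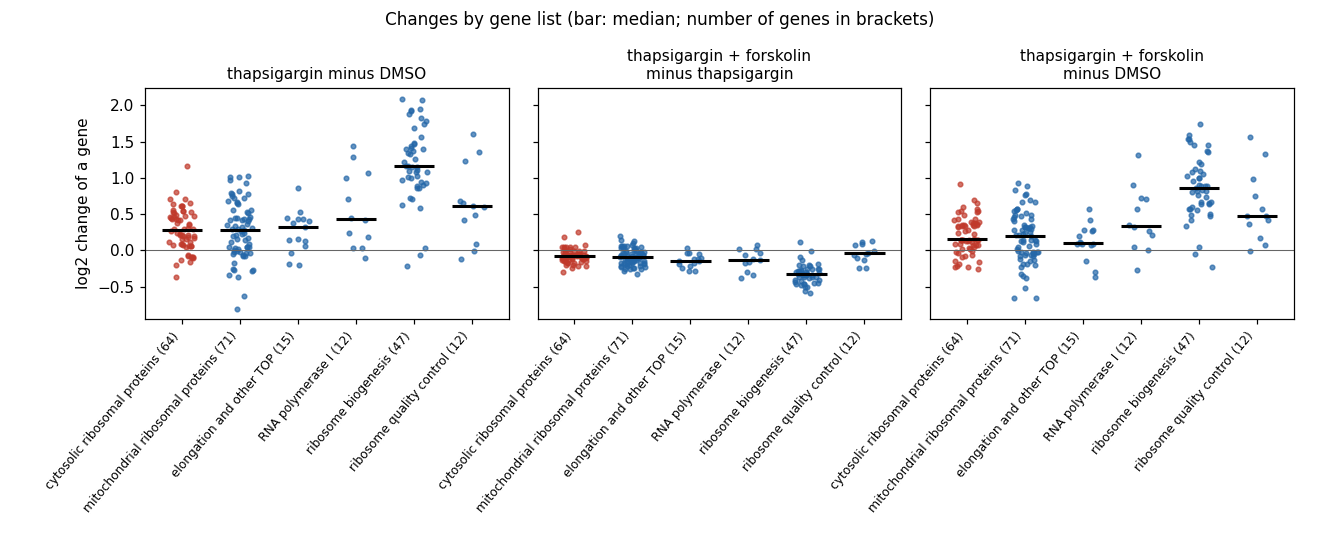
Log2 change of each gene (points) by gene list, with the number of genes in brackets and a bar for the median, for thapsigargin minus DMSO (left), thapsigargin with forskolin minus thapsigargin (middle) and thapsigargin with forskolin minus DMSO (right). The cytosolic ribosomal protein genes (red) have medians of 0.28, -0.08 and 0.16, and the ribosome biogenesis genes 1.16, -0.33 and 0.87.

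Mitochondrial ribosomal proteins form a separate ribosome that translates the mitochondrial genome. Of 71 genes 39 rose and 8 fell with thapsigargin, with a median of 0.29, beside 38 rises, 0 falls and a median of 0.28 for the 64 cytosolic genes. The rises were 54.9% and the falls 11.3% of the 71, beside 18.2% and 16.9% of all genes. Mrpl32 rose by 1.02 and Mrps27 by 1.01, and Mrpl49 fell by 0.80 (adjusted p = 1.27e-05). With forskolin 0 rose and 4 fell (5.63%, near the 4.17% of all genes), Mrps17, Mrps22, Mrpl50 and Mrps27. Ribosome quality control genes, which free stalled ribosomes and clear their products, gave 9 rises and 0 falls among 12 measured of 16, with a median of 0.61. The rises were 75% of the 12, beside 18.2% of all genes, where 16.9% fell. Ascc3, a helicase that splits collided ribosomes, rose by 1.61 and Zfp598, the ligase that marks them on Rps10 and Rps20, by 1.23. With forskolin 1 (8.33%, beside 4.17% of all genes), the deubiquitinase Usp10, fell by 0.24.

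Growth control genes of the mTOR and Myc pathways gave 11 rises and 6 falls among 20 with thapsigargin. The rises were 55%, beside 18.2% of all genes, and the falls 30%, beside 16.9%. With forskolin on top, 1 of the 20 rose (5%, beside 3.70%) and 4 fell (20%, beside 4.17%). Myc, a transcription factor that drives ribosome biogenesis, measured 9.38, 9.16 and 9.04 with DMSO, 11.71, 11.60 and 11.58 with thapsigargin, and 11.22, 11.22 and 11.22 with both. Its groups were far apart, with both agents below thapsigargin alone. It rose by 2.43 ± 0.0842 (adjusted p = 3.69e-08) and fell by 0.41 with forskolin (adjusted p = 0.0179). The Myc values with both agents were equal as printed, so this SE and these adjusted p-values may also be too small. Its relative Mycn, at 8.04, 7.79 and 8.10 with DMSO and 6.19, 5.95 and 5.67 with thapsigargin, fell by 2.04. Larp1, the TOP mRNA binding protein, rose by 0.70 and fell by 0.31 with forskolin, and Eif4ebp1, the mTOR target that holds back cap-dependent initiation, rose by 1.34. The mTOR inhibitors Sesn2 and Ddit4 rose by 1.21 and 0.54, and Deptor fell by 1.06. Of 6 measured genes with Rps6k symbols, of 10 listed, Rps6kc1 rose by 0.58 and 2 fell, Rps6ka5 by 0.29 and Rps6kb2 by 0.22. The rise was 16.7% of the 6, beside 18.2% of all genes, and the falls 33.3%, beside 16.9%. The shared symbol does not show that each product acts on Rps6.

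Promoter motifs were counted in the same 300-base windows on both strands, except the pyrimidine run, which was read on the gene's strand. Motifs may share bases where they lie side by side. The run was present in 15 of 27 members that rose with thapsigargin (55.6%), in 9 of 22 that were not called (40.9%) and in 4 of 40 ribosome biogenesis genes (10%). CGGAAG, a core letter string of ETS-type sites, was in 32 of the 49 members (65.3%), beside 18.8% of all promoters, in 18 of the 27 that rose (66.7%) and in 14 of the 22 not called (63.6%). CACGTG, the E-box that Myc and other factors bind, was in 4 of the 49 (8.16%), all 4 among those that rose, beside 8.09% of all promoters and 27.5% of the biogenesis genes (11 of 40). The cyclic AMP response element TGACGTCA was in 4 of the 49 (8.16%), 2 of them among those that rose, beside 2.03%. TGATGNAA, a string of the element bound by Atf4 and Chop dimers, was in 0 of the 49, beside 4.51% of all promoters and 7.5% of the biogenesis genes (3 of 40). The Nrf1 motif was in 2 of the 49, both not called, beside 1.07% of all promoters. These are matches of letters and not measured sites.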

How the data were processed

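Total RNA of podocytes in culture was hybridised to 9 arrays, 3 per group, with groups read from the sample titles. The values are log2 values that the authors deposited, 1 per probe set and array, for which the submitters' processing notes name affy and RMA. RMA subtracts background, equalises the distributions of the arrays and combines the probes of each set, so changes are relative to the bulk of genes and a change in total RNA cannot be seen. Not given in the sources used here are versions and the genome build.

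Of 41345 probe sets the annotation pairs 23521 with 1 symbol, 1814 with several and 16010 with none. The probe set with the highest mean per symbol gave 22180 genes. Group means of all 9 arrays were fitted with limma 3.58.1 in R 4.3.3 (lmFit, eBayes, 6 residual degrees of freedom), without a filter, and 3 two-sided contrasts were called where p, adjusted by Benjamini-Hochberg across the 22180 genes, was below 0.05. The procedure was tested on simulated data. The number of arrays limits the precision. Paralogs were compared by exact permutation of arrays.

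The members and gene lists were chosen with earlier results of these data known. Genes named are the up to 10 called members with the largest rise and fall per comparison, a fixed set with paralogs, up to 4 called genes per list, and the 3 members with the highest and lowest means; others were chosen after their values were seen. Alternatives were another set of arrays, variance prior, array weights, scaling, filter, probe set, minimum size (0.25), replicate block and each array left out. Promoters are RefSeq sequences (GRCm38.p6). Plots were made in Python 3.11.15 with matplotlib 3.10.9.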

Additional observations from a re-analysis of the deposited data

How the results depend on the processing

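The 38 rises with thapsigargin stayed between 26 and 43 under all alternatives except a test against a minimum change of 0.25 on the log2 scale, which called 18; the 26 came from the brightest 10% of genes, where 31 members were tested. Leaving out each array gave 30 to 39, and 30 to 37 of the 38 calls were kept. Falls with thapsigargin, 0 as reported, were 1 with an intensity trend and robust prior and 1 in the brightest 10% of genes (Rpl21 in both), 2 with quantile normalization repeated (Rpl21 and Rps27l), and 0 to 1 with an array left out (Rpl39l without DMSO array 3). For forskolin on top of thapsigargin the 1 fall became 2 in a fit of the 6 arrays, with array weights or with centring on array medians, 5 with the trend and robust prior, 3 among genes above the median level, 8 in the brightest 10% and 0 at the minimum change of 0.25, and ranged from 0 to 4 with an array left out. With the mean of all probe sets or the probe set of highest variance the 1 fall was Rps12, and Rpsa missed the threshold. Against DMSO the 1 fall with both agents was 0 in a fit of 6 arrays, after centring and at the minimum change, 0 in the brightest 10%, where Rps27l was not among the genes tested, and 0 to 2 with an array left out; the 31 rises were 7 at the minimum change and 25 to 31 with an array left out; the median of 0.16 was 0.26 among genes above the median level, 0.26 with the mean of probe sets and 0.29 with the probe set of highest variance. Rpl21 turned from a difference of -0.09 with thapsigargin to 0.19 with the mean of its probe sets and 0.74 with the one of highest variance, and against DMSO with both agents to 0.24 and 0.82; the probe sets of this gene differ. Where no other value is named, the cause was not tested. Among single genes named, 194 comparisons of 3514 lost the threshold, 41 passed it and 4, those of Rpl21, changed sign.

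Replicate numbers are shared between groups, but deviations of same-numbered arrays from their group means correlated between -0.074 and 0.247, so the numbers were not taken to pair the arrays. For replicate 3 the correlations were 0.211, 0.226 and 0.184, all above 0. A shared replicate effect was not tested apart from the fit with a replicate block. With the replicate block 38 members were higher and 0 lower with thapsigargin, 36 of them among the 38 as reported, with Rps19 (adjusted p = 0.0629) and Rps4x (0.056) lost, 0 were lower with forskolin on top of it (Rpsa at an adjusted p of 0.0598), and 30 were higher and 1 lower with both agents against DMSO. Ribosome biogenesis genes that fell with forskolin numbered 37 as reported, 27 to 42 with an array left out, 33 with the block and 2 at the minimum change of 0.25.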
